A study of Mus musculus with 25 samples.

Results

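Potassium channel genes were taken as every gene whose symbol starts with Kcn, together with Abcc8 and Abcc9, the sulfonylurea receptor subunits of the ATP-sensitive potassium (KATP) channel. They made up 98 of the 24439 genes in the RNA-seq tables, carrying 96 symbols, and 512 of the 65053 consensus ATAC-seq peaks had a symbol of the same rule as their nearest gene, 89 symbols in all, of which Kcnq1ot1, with 1 peak, is not in the RNA-seq tables. Kcnb2 and Kcnh8 were each listed under 2 gene identifiers, so the level of either gene is split and uncertain. The samples were the mouse islet tumour lines αTC1 clone 6, derived from glucagon-producing alpha cells, and βTC6, derived from insulin-producing beta cells. Neither line was treated. Each line was profiled by RNA-seq (n = 3) and by ATAC-seq (n = 5), an assay that counts insertions of a transposase into open chromatin, and 9 further ATAC-seq libraries were made from mixtures of the lines holding 10% to 90% αTC1 cells. Each cell type is represented by 1 tumour-derived line, and the culture media of the lines differed, so effects of the line and of its medium cannot be told apart. Nothing in the labels ties the replicates to independent cultures, and p-values then measure only the spread between these samples, which may be technical.

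Potassium channels set the resting membrane potential and end action potentials. In the beta cell the KATP channel, an octamer of Kir6.2 (encoded by Kcnj11) and SUR1 (encoded by Abcc8), closes when glucose metabolism raises ATP, which depolarises the membrane and starts insulin release. Alpha cells carry the same channel, where it contributes to the control of glucagon release. Voltage-gated (Kv) channels repolarise the membrane, inward rectifiers hold it near rest, tandem-pore channels carry background current, and calcium-gated channels couple the current to calcium entry. In bulk samples, fewer cells that express a gene and less RNA per cell cannot be told apart.

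The start-site and distal sequences on which the results turn are printed 5′ to 3′ on the strand of the gene (distal peaks on the plus strand), from mouse build mm9. The KATP start sites are shown because their accessibility did not follow their mRNA. Kcna5, Kcnip1 and Kcnj2 are shown because they had the largest fitted differences in mRNA, in either direction, and in start-site accessibility, Kcnip3 because its alternative start sites differed in opposite directions, and the distal peaks because they had the largest fold change and the largest moderated t in αTC1. The 150 bases before the start site lay at chr7:53356134-53356283 for Kcnj11 (minus strand), chr7:53435404-53435553 for Abcc8 (minus), chr6:126485574-126485723 for Kcna5 (minus), chr11:33893194-33893343 for Kcnip1 (minus) and chr11:110927328-110927477 for Kcnj2 (plus). For Kcnip3 (minus strand) they lay at chr2:127347107-127347256 before the upstream start and chr2:127308236-127308385 before the downstream start. The centres of the intergenic peaks lay at chr2:55670701-55670850, with Kcnj3 as nearest gene, and chr1:78757724-78757873, with Kcne4 as nearest gene. Capitals mark matches on either strand to 5 short motifs. These are GGGCGG for the GC box bound by Sp1-type factors, CCAAT for the box bound by the nuclear factor Y complex, CAGCTG for an E-box of the type bound by helix-loop-helix factors, TATAAA for the core of the box bound by the TATA-binding protein, and TGACGTCA for the palindromic cyclic AMP response element. No motif lies within another.
Kcnj11: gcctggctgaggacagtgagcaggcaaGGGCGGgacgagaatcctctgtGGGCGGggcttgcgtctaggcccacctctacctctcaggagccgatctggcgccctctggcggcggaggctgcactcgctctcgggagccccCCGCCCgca
Abcc8: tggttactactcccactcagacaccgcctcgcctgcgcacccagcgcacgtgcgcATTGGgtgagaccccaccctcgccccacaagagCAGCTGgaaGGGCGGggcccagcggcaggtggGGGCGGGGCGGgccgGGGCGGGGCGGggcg
Kcna5: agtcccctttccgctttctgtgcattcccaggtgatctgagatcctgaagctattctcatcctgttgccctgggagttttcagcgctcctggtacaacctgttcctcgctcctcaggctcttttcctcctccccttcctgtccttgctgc
Kcnip1: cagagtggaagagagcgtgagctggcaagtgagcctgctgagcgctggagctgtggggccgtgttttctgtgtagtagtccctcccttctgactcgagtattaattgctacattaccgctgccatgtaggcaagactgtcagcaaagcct
Kcnj2: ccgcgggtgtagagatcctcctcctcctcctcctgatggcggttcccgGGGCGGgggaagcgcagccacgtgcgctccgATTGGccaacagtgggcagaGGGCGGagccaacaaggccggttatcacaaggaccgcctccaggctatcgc
Kcnip3 upstream start: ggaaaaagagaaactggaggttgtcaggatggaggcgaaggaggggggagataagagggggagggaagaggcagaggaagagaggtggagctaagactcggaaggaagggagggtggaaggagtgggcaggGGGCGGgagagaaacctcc
Kcnip3 downstream start: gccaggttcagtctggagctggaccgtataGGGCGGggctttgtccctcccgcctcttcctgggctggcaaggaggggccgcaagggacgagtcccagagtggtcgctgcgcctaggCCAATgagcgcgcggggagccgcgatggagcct
Kcnj3 distal peak: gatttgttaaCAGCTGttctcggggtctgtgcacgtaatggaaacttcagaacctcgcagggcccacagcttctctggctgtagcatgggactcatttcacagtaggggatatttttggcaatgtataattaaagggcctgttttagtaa
Kcne4 distal peak: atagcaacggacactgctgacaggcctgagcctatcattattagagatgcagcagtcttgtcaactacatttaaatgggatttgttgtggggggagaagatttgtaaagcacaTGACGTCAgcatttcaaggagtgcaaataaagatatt

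The Kcnj11 window held 3 GC boxes with a GC content of 70.7%, and the Abcc8 window held 5 GC boxes, a CCAAT box and an E-box with a GC content of 75.3%. The Kcna5 window had none of the 5 motifs and a GC content of 54.7%. Over all 22367 protein-coding genes, 35.5% of the 150-base windows before the annotated gene start held the GC box, 26.1% the CCAAT box, 7.51% the E-box, 7.88% the TATA motif and 1.70% the cyclic AMP element, with a median GC content of 56.7%. The 98 potassium channel genes had a median GC content of 62.0%, and 43.9% of them held the GC box, 16.3% the CCAAT box and 17.3% the E-box. The TATA motif was found before 3 of the 98 genes, and the cyclic AMP element before none. The Kcne4 distal peak held the cyclic AMP element, which was present in 0.575% of the equally long centres of all peaks and in 2 of the 44 peaks of potassium channel genes called more open in αTC1. The E-box was present in 13 of those 44 (29.5%), in 9 of the 88 called more open in βTC6 (10.2%) and in 13.4% of all peak centres. In these shares the annotated start was used for every gene, so that Kcnj11, whose printed window lies 526 bases away, counts as lacking the GC box, and the windows of Kcnip1 and Kcnip3 also differ from those printed. These matches describe letters in the windows, and no test was made of them.

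The libraries held 21954031 to 26033482 expected counts for RNA-seq and 4397851 to 10374903 reads in peaks for ATAC-seq. The lines carried the markers of their labels. All 7 beta cell markers were called higher in βTC6 (Ins2 at 23541 to 35748 FPKM against 0.19 to 0.64), and 6 of 7 alpha cell entries were called higher in αTC1 (Gcg at 12113 to 14406 FPKM against 172 to 267), the exception being Ttr. The summed beta cell list was 14.5 to 15.6 FPKM in αTC1, and the summed alpha cell list 738 to 1860 FPKM in βTC6. βTC6 libraries also held Sst (207 to 325 FPKM, against 0 in αTC1) and Ppy (3.70 to 50.8 FPKM, against at most 0.10), and the part of this mixed hormone expression in the results was not tested. Rbp4, also on the delta cell list, was called higher in αTC1. Of the acinar, duct and stromal lists, Cela1, Sox9 (4.05 to 4.42 FPKM against 0), Col1a2 and Pdgfra were called higher in αTC1, and the lists summed to 3.58 to 3.73, 8.15 to 14.3 and 2.42 to 3.43 FPKM in αTC1 and 0.14 to 0.82, 6.92 to 13.2 and 0.34 to 0.54 FPKM in βTC6. The endothelial list summed to at most 0.29 FPKM in any library, and the immune list to 0.92 to 1.2 FPKM in αTC1 and 2.03 to 2.19 FPKM in βTC6, nearly all of it Cd68. Of the remaining markers of these types, Cdh5, Kdr, Ptprc, Cpa1, Prss2, Ptf1a and Col3a1 were at 0.03 FPKM or lower in every library, Krt19 at up to 0.08, Col1a1 at up to 0.21 and Pecam1 at up to 0.28 FPKM, while the duct marker Spp1 reached 4.10 to 13.2 FPKM. The part of the other markers in the results was not tested.

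Of the 98 genes, 37 reached 1 FPKM in all 3 replicates of either line and were tested, 14 of them through both lines, 16 through βTC6 alone and 7 through αTC1 alone. A gene was called when its false discovery rate (FDR, Benjamini-Hochberg over all 12195 genes tested, edgeR quasi-likelihood test) was under 5% and its log2 fold change, given as βTC6 over αTC1, lay beyond 2 in either direction. By this rule 16 were higher in βTC6, where 10.2% of all tested genes were called that way, and 6 were higher in αTC1, where 4.08% were. The genes called were Kcnip1, Kcnf1, Kcnmb2, Kcnd2, Kcnn2, Kcnb2, Kcns3, Kcnk9, Kcnc2, Kcnh1, Kcnj6, Kcnc1, Kcnmb4, Kcnh5, Kcnab3 and Kcnma1 in βTC6, and in αTC1 they included Kcna5, Kcnj9, Kcnk3, Kcnc4 and Kcnj3. With limma on log2(FPKM + 1) the counts were 7 and 3, and Kcna5, Kcnab3, Kcnb2, Kcnc1, Kcnd2, Kcnh5, Kcnj3, Kcnj9, Kcnk9, Kcnma1, Kcnmb4 and Kcns3 lost their call. All called genes except Kcnab3 passed the FPKM filter through the higher line alone, so that a difference was built into their selection, and the counts are read as a description. The median log2 fold change over the 37 genes was 1.13, against 0.01 over all genes tested, and the median absolute value was 3.59 against 0.61. Setting genes with no count in 1 line to their lower bound left both medians of the 37 genes at 1.13 and 3.59. Without the fold threshold 24 genes were higher in βTC6 and 11 higher in αTC1, where 38.7% and 36.0% of all genes were, and only Kcnj11 and Kcnk16 did not pass the FDR.

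**Figure D1:**
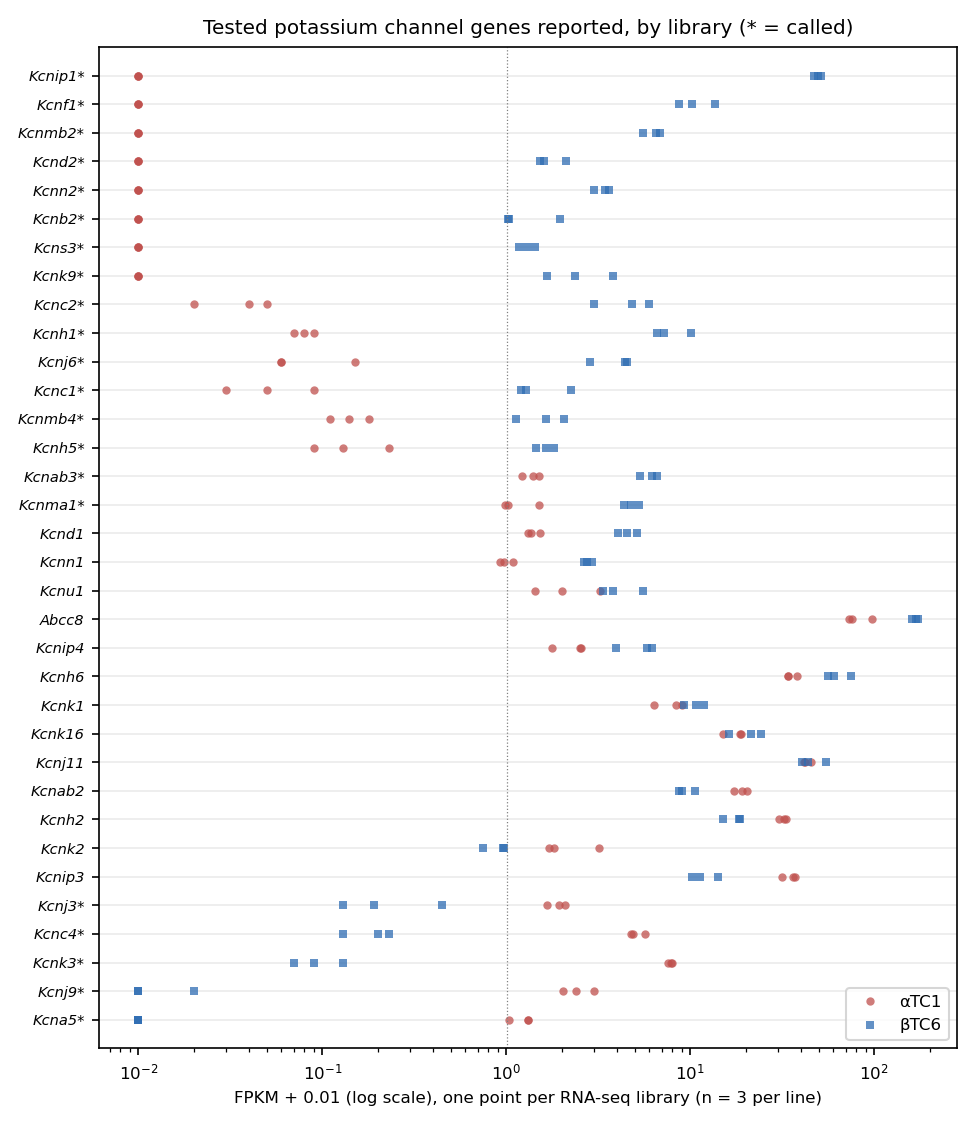
FPKM plus 0.01 on a log axis for 34 of the 37 tested potassium channel genes, with 1 point for each RNA-seq library (αTC1 red circles, βTC6 blue squares, n = 3 each), ordered by log2 fold change, with called genes starred and a dotted line at 1 FPKM. The libraries of the lines overlap for Kcnj11 and Kcnk16, and how many of all tested genes overlap was not counted. No count was found in any αTC1 library for 8 of the called genes, which passed the FPKM filter through βTC6 alone.

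The summed level of all 98 genes was 369 ± 21.4 FPKM in αTC1 and 502 ± 22.6 FPKM in βTC6 (SD, n = 3), and 8 and 10 genes held 80% of it. Abcc8 was the most abundant potassium channel gene in both lines. Kcnj11, Kcnh6, Kcnip3 and Kcnh2 were also among the most abundant in αTC1, and Kcnh6, Kcnip1 and Kcnj11 came next in βTC6.

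The KATP channel pair of the islet was expressed in both lines, and its subunits differed from each other. Kcnj11, which encodes the pore, was at 41.4, 42.0 and 45.2 FPKM in αTC1 and at 43.9, 40.4 and 54.6 FPKM in βTC6. The ranges overlapped, and the log2 fold change was 0.17 ± 0.11 (SE; FDR = 0.195, edgeR). Abcc8, which encodes the regulatory subunit targeted by sulfonylureas, was at 73.1, 75.3 and 96.9 FPKM in αTC1 and at 173, 169 and 161 FPKM in βTC6. Every βTC6 library lay above every αTC1 library, with a log2 fold change of 1.09 ± 0.12 (FDR = 3.37e-05, edgeR), which is 2.13-fold and below the fold threshold. The ratio of Abcc8 to Kcnj11 FPKM was accordingly 1.77 to 2.14 in αTC1 and 2.95 to 4.17 in βTC6. The pair lies on chromosome 7 (Kcnj11 at 53352533-53355607 and Abcc8 at 53359893-53435403, both on the minus strand, mm9).

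The second pair, Kcnj8 and Abcc9 on chromosome 6, encodes Kir6.1 and SUR2, the KATP subunits known from vascular muscle, and was low in both lines. Abcc9 was at 0.64, 0.68 and 1.01 FPKM in αTC1 and at 0.03, 0.06 and 0.03 FPKM in βTC6. Kcnj8 was at 0.27, 0.32 and 0.51 FPKM in αTC1 and at 0.02, 0.00 and 0.04 FPKM in βTC6, where it had 3 counts in all, a 20.7-fold ratio with a 95% exact counting interval of 6.74 to 103 that covers counting error only. Neither gene reached the FPKM filter. In a fit without the filter both were called higher in αTC1, where 5.21% of all 19570 genes were, at a log2 fold change of -4.41 for Abcc9 (FDR = 1.13e-06, edgeR) and -4.19 for Kcnj8 (FDR = 2.08e-04, edgeR).

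Accessibility at the KATP start sites, printed above, was lower in βTC6 for Kcnj11 and did not differ measurably for Abcc8. The Kcnj11 peak (chr7:53355968-53356391, centred 46 bases before the start site) held 18.3, 13.9, 16.5, 15.8 and 12.7 normalized reads in αTC1 and 6.53, 2.05, 5.54, 5.42 and 7.14 in βTC6. The groups did not overlap, and the log2 fold change was -1.44 ± 0.22 (SE; FDR = 6.34e-06, limma), against a median of -0.57 over all chromosome 7 peaks. The Abcc8 peak (chr7:53434803-53435648, first exon) held 9.80, 14.2, 14.3, 14.1 and 6.36 normalized reads in αTC1 and 10.9, 4.10, 10.0, 8.56 and 6.38 in βTC6. These overlapped, with a log2 fold change of -0.51 ± 0.24 (FDR = 0.0571, limma), or 0.06 relative to the chromosome median. Of the 12 peaks assigned to either gene, 8 were lower in βTC6. The median log2 fold change of the 12 was -0.73, against -0.57 over the chromosome. A single one was called, in αTC1, where 5.38% of all peaks were. It lay in an Abcc8 intron (chr7:53417635-53418515), at 28.8 ± 3.17 in αTC1 and 6.35 ± 0.764 in βTC6 (SD, n = 5). Its log2 fold change of -2.02 (FDR = 3.34e-11, limma) lay just past the fold threshold. All 3 peaks of the Kcnj8 and Abcc9 pair were lower in βTC6. The Kcnj8 start-site peak was at 10.7 ± 0.707 and 6.07 ± 1.2, and the intronic Abcc9 peak at 10.7 ± 1.68 and 2.15 ± 0.905 normalized reads in αTC1 and βTC6, against a chromosome 6 median log2 fold change of -0.79. Relative to that median the Kcnj8 peak had the opposite sign, at 0.05.

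**Figure D2:**
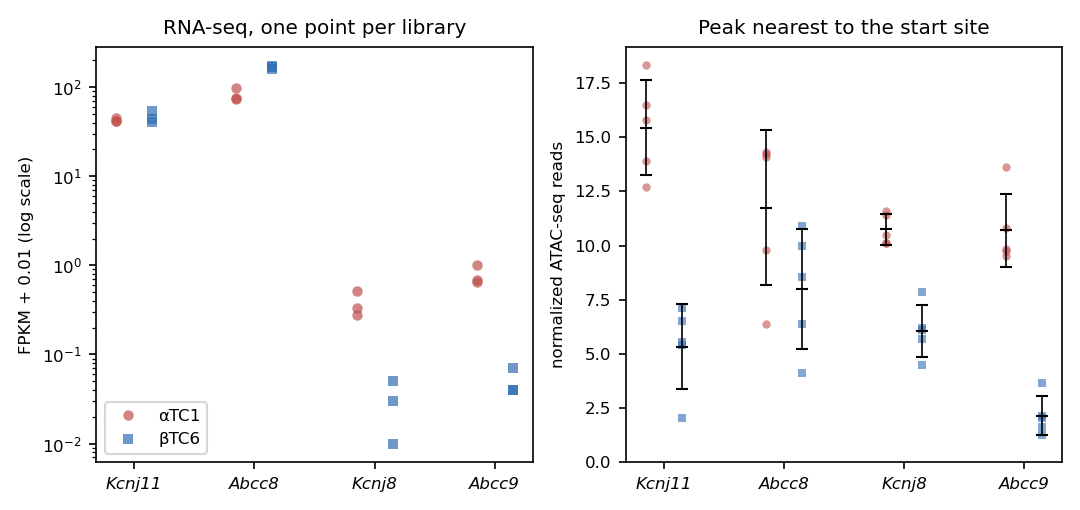
Left, FPKM plus 0.01 on a log axis of the 4 KATP genes, 1 point for each RNA-seq library (n = 3 per line). Right, normalized ATAC-seq reads in the peak nearest to each start site, with points for libraries and bars for the mean ± SD (n = 5 per line): Abcc8 mRNA is higher in βTC6, while the Kcnj11, Kcnj8 and Abcc9 peaks are lower there.

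Among the other inward rectifiers, 3 of 13 genes were tested, and all belonged to the G protein-gated (GIRK) group, whose channels open when inhibitory receptors are active. The lines expressed different members. Kcnj3 (GIRK1), whose exons overlap an antisense gene, was at 2.08, 1.92 and 1.65 FPKM in αTC1 and at 0.44, 0.12 and 0.18 FPKM in βTC6, a log2 fold change of -2.99 ± 0.35 (SE; FDR = 5.28e-05, edgeR). Kcnj9 (GIRK3) was at 2.03, 2.38 and 2.98 FPKM in αTC1 and had 1 count over the βTC6 libraries. Its ratio was 625-fold (95% exact counting interval 112 to 24700, counting error only), with FDR = 4.30e-07 in edgeR. Kcnj6 (GIRK2) went the other way, at 0.05, 0.05 and 0.14 FPKM in αTC1 and at 4.43, 2.83 and 4.52 FPKM in βTC6 (log2 fold change 5.73 ± 0.38, FDR = 1.25e-06, edgeR). Kcnj5, the fourth GIRK gene, had no count in any library. Just under the filter, Kcnj12 was at 1.08, 0.80 and 2.24 FPKM in βTC6 and at 0 in αTC1, and Kcnj14 at 0.63, 0.70 and 0.65 FPKM in αTC1 and at most 0.08 FPKM in βTC6.

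The pore-forming Kv subunits were the largest family, with 16 of 42 genes tested. Of these, 8 were called higher in βTC6 and 3 higher in αTC1, where 10.2% and 4.08% of all genes were. All 16 passed the FDR, 11 higher in βTC6 and 5 in αTC1, where 38.7% and 36.0% of all genes were. The filter was passed through the higher line alone by 11 of them, which fixed their direction. The summed levels of the family overlapped, at 130, 134 and 145 FPKM in αTC1 and 152, 120 and 140 FPKM in βTC6. The most abundant in βTC6 was Kcnh6, an ERG-type channel, at 75.0, 56.0 and 60.1 FPKM against 34.2, 34.0 and 38.1 FPKM in αTC1 (log2 fold change 0.92 ± 0.11, FDR = 5.34e-05, edgeR). Its paralog Kcnh2 went the other way, at 32.0 ± 1.41 FPKM in αTC1 and 17.4 ± 2.01 FPKM in βTC6 (SD, n = 3; log2 fold change -0.78, FDR = 6.64e-05, edgeR).

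Within the Kv classes, paralogs also differed in opposite directions. Kcna5, a Shaker-type subunit, was at 1.31, 1.03 and 1.31 FPKM in αTC1 and had no count in βTC6, at least 31.2-fold higher against a floor of 3 counts in each library (FDR = 5.62e-06, edgeR). Its neighbour Kcna6 was at 0.46, 0.46 and 0.36 FPKM in αTC1 and at most 0.01 FPKM in βTC6, while Kcna2 was at 0.88, 0.29 and 0.52 FPKM in βTC6 and at 0 in αTC1, both below the filter. Of the Shaw-type genes, whose channels allow fast firing, Kcnc4 was at 4.73, 4.88 and 5.70 FPKM in αTC1 and at 0.22, 0.19 and 0.12 FPKM in βTC6 (log2 fold change -4.78, FDR = 1.92e-07, edgeR). Kcnc1 and Kcnc2 were called in the other direction (log2 fold change 5.52 and 7.56), and Kcnc2 reached 5.98, 2.98 and 4.82 FPKM there against 0.04, 0.01 and 0.03 FPKM in αTC1.

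The Shab-type gene Kcnb2 and the genes of 2 silent subunits, which assemble with Shab-type channels, were called higher in βTC6. Kcnb2 was at 1.96, 1.01 and 1.02 FPKM in βTC6 for its higher entry and without a count in αTC1, at least 41.4-fold (FDR = 2.06e-05, edgeR). The silent subunit gene Kcnf1 was at 10.2, 8.73 and 13.6 FPKM in βTC6 with no count in αTC1, at least 393-fold (FDR = 4.32e-07, edgeR). Kcns3, another silent subunit gene, was at 1.42, 1.17 and 1.28 FPKM in βTC6 with no count in αTC1, at least 30.2-fold (FDR = 3.95e-06, edgeR). The Shal-type gene Kcnd2, a source of transient A-type current, was at 2.11, 1.60 and 1.51 FPKM in βTC6 and without a count in αTC1, at least 72.1-fold (FDR = 1.81e-06, edgeR), and Kcnd1 was 3.41-fold higher (log2 fold change 1.77, not called). Of the EAG-type genes, Kcnh1 was at 7.16, 10.0 and 6.61 FPKM in βTC6 against 0.08, 0.07 and 0.06 FPKM (log2 fold change 7.12) and Kcnh5 had a log2 fold change of 3.59.

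Auxiliary Kv subunits followed, with 5 of 12 genes tested, of which 2 were called higher in βTC6 and none in αTC1, against 10.2% and 4.08% of all genes. Kcnip1, a calcium-binding protein that assembles with Shal-type channels, had the largest fitted fold change of the 37 tested genes. It was at 51.1, 47.3 and 49.4 FPKM in βTC6, and none of the 3 αTC1 libraries had a count, at least 595-fold (FDR = 1.63e-08, edgeR). Its paralog Kcnip3 was at 37.3, 36.3 and 31.7 FPKM in αTC1 and at 11.3, 10.2 and 14.2 FPKM in βTC6 (log2 fold change -1.55 ± 0.12, FDR = 3.96e-06, edgeR), short of the fold threshold. Kcnip4 was 2.13-fold higher in βTC6 (FDR = 0.00136, edgeR). Of the beta subunits, Kcnab2 was at 18.9 ± 1.49 FPKM in αTC1 and 9.43 ± 1.09 FPKM in βTC6, and Kcnab3 at 1.39, 1.21 and 1.5 FPKM in αTC1 and 6.18, 6.60 and 5.34 FPKM in βTC6. Kcnab3 was called at a log2 fold change of 2.13 ± 0.18, which was 1.65 relative to the median gene of chromosome 11 and then not called. Kcnab2 overlaps another gene on its strand and Kcnab3 an antisense gene, so their levels are uncertain.

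Of the calcium-, sodium- or pH-gated genes, 6 of 12 were tested, all 6 were higher in βTC6 at the FDR, where 38.7% of all genes were, and 4 were called, where 10.2% of all genes were. All of them except Kcnu1 passed the FPKM filter through βTC6 alone, which largely fixed that direction, and of the 6 untested genes, Kcnt2 and Kcnmb1 were called higher in βTC6 without the filter (log2 fold change 3.33 and 2.40), Kcnn3, Kcnt1 and Kcnmb3 did not pass the FDR (-1.62, -0.97 and -0.07), and Kcnn4 had no count. Their summed level was 4.09, 4.45 and 7.23 FPKM in αTC1 and 24.1, 23.0 and 25.4 FPKM in βTC6. Kcnma1, the pore of the large-conductance (BK) channel, was at 0.97, 1.01 and 1.5 FPKM in αTC1 and 5.25, 4.74 and 4.34 FPKM in βTC6 (log2 fold change 2.12 ± 0.20, FDR = 1.02e-05, edgeR). Kcnma1 lies on chromosome 14, whose median gene had a log2 fold change of 1.2, and relative to that median its value was 0.92 and it was not called. It also lost its call with limma on log2(FPKM + 1) and was the single gene to lose it on log2(FPKM + 0.1). Of the BK beta subunit genes, which lie on other chromosomes, Kcnmb2 was at 5.54, 6.5 and 6.85 FPKM in βTC6 with no count in αTC1, at least 90.3-fold (FDR = 1.33e-06, edgeR), and Kcnmb4 was at 2.04, 1.64 and 1.12 FPKM against 0.10, 0.13 and 0.17 FPKM (log2 fold change 4.82 ± 0.40). Kcnmb4 shares exon sequence with 2 antisense genes, whose reads may be counted with it. Of the small-conductance (SK) genes, Kcnn2 was at 3.61, 3.42 and 3.0 FPKM in βTC6 with no count in αTC1, at least 65.5-fold (FDR = 9.74e-07, edgeR), and Kcnn1 had a log2 fold change of 1.54. Kcnu1, a sperm channel gene, was the highest of the family in αTC1, at 1.43, 1.99 and 3.23 FPKM.

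The tandem-pore channels had 5 of 14 genes tested, and their most abundant gene did not differ measurably. Kcnk16 (TALK1), known for its pancreatic expression, was at 18.6, 18.9 and 15.0 FPKM in αTC1 and 21.3, 24.2 and 16.3 FPKM in βTC6. The ranges overlapped, and the log2 fold change was 0.29 ± 0.17 (FDR = 0.145, edgeR), and -0.91 relative to the median gene of chromosome 14, on which it lies. Kcnk1 was 1.40-fold higher in βTC6 (FDR = 0.0193, edgeR). The acid-sensitive background channels differed in opposite directions. Kcnk3 (TASK1) was at 7.59, 7.90 and 7.99 FPKM in αTC1 and at 0.06, 0.12 and 0.08 FPKM in βTC6, 83.9-fold lower (log2 fold change -6.39 ± 0.20, FDR = 1.60e-08, edgeR). Kcnk9 (TASK3) was at 3.79, 1.65 and 2.36 FPKM in βTC6 and had no count in αTC1, at least 24.5-fold (FDR = 5.69e-05, edgeR). Kcnk2 (TREK1) was higher in αTC1, with a log2 fold change of -1.45 ± 0.25 (FDR = 5.78e-04, edgeR), as was Kcnk13 below the filter, at 0.90, 0.94 and 1.74 FPKM against at most 0.06 FPKM.

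Of 17 proteins that work beside these channels and are not named Kcn (Kv and BK auxiliary subunits, the sodium pump and the HCN pacemaker channels), 12 were tested, and 3 were called in each direction, where 10.2% of all genes were called higher in βTC6 and 4.08% in αTC1. Dpp6, a Shal-type auxiliary subunit gene, was at 12.9 to 17.3 FPKM in βTC6 and 0.80 to 1.33 FPKM in αTC1, while its paralog Dpp10 was at 3.16 to 3.61 FPKM in βTC6 and 32.5 to 45.0 FPKM in αTC1. The other calls were Atp1b2 and Hcn4 in βTC6 and, among those in αTC1, Atp1b1.

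Chromatin around the genes differed as well. Peaks were called at FDR under 5% (limma on log2 of normalized reads plus 1, adjusted over all 65053 peaks) with an absolute log2 fold change over 2. Of the 512 peaks, 88 (17.2%) were called more open in βTC6 and 44 (8.59%) in αTC1, where 12.9% and 5.38% of all peaks were. The median log2 fold change was 0.42, against 0.001 over all peaks, and the median absolute value 1.32 against 0.97. Of the 88 peaks called in βTC6, 9 were peaks of Kcnj2 and Kcnj16 in a single stretch of chromosome 11, described below. There every αTC1 library was at its minimum, and no count was made without that stretch. The study's library records express mitochondrial reads differently for replicates 1 to 3 and for replicates 4 and 5, which were therefore also fitted apart as possible processing groups. Within replicates 1 to 3 alone the counts were 90 and 42, and within replicates 4 and 5 alone 94 and 49. The counts rest on the pseudocount and the test: they were 16 and 15 with a pseudocount of 5, which lost 101 calls, and 132 and 75 with edgeR on the recovered reads. After quantile normalization they were 69 and 65, which moved the share of calls in βTC6 from 66.7% to 51.5%. Of 85 peaks within 2 kb of a start site, 19 were called more open in βTC6 and 4 in αTC1, where 5.51% and 1.41% of all start-site peaks were. Peaks called in both directions were found at 10 of the 89 symbols (11.2%) and at 3.74% of all 17389 symbols with a peak. A symbol with more peaks has more chances to hold both, so the shares are not set against each other.

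The direction of the start-site peak was mostly that of the mRNA. A start-site peak was present at 31 of the tested genes, and at 26 of them (83.9%) its change had the sign of the mRNA change. Over all 9516 tested genes joined to a start-site peak in the same way, the share was 65.5%. The difference between these shares was not tested. Across these 31 genes, Pearson r was 0.84 and Spearman rho 0.85. Genes are not independent replicates, and the values share the same cell lines, so the correlation is a description. The median start-site log2 fold change was 1.58 for genes called higher in βTC6 and -1.14 for those called higher in αTC1. Among 19 called genes with a start-site peak, the peak nearest to the start was called the same way at 7, namely Kcna5 and Kcnj9 in αTC1 and Kcnf1, Kcnip1, Kcns3, Kcnn2 and Kcnh5 in βTC6. Counting any peak within 2 kb, 11 genes had one, with Kcnc2, Kcnj6, Kcnmb2 and Kcnmb4 in addition. Over all 1256 called genes with a start-site peak, 28.9% had the nearest and 31.4% any start-site peak called the same way, and no difference of the potassium channel genes from these shares was tested. Kcnj3 was the exception in direction. Kcnk3, with the 83.9-fold difference in mRNA, had no peak assigned to it.

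**Figure D3:**
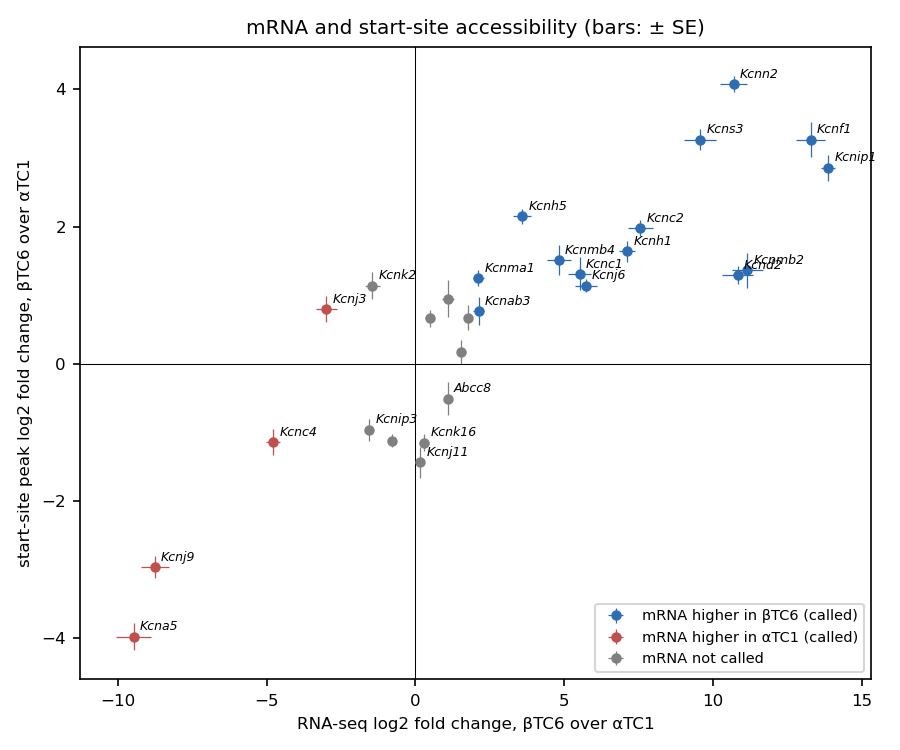
Log2 fold change of mRNA (x axis) and of the peak nearest to the start site (y axis), both βTC6 over αTC1, for 28 of the 31 tested genes with a peak within 2 kb, with bars for ± SE. Fitted mRNA values of genes with no count in 1 line depend on the prior count of the fit and are not bounds. The mRNA bars of those genes do not measure the uncertainty of the difference. Kcnj3 and Kcnk2 lie in the upper left, and Abcc8, Kcnk16 and Kcnj11 lie in the lower right.

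At the strongest start sites the libraries of the lines were well apart. The Kcna5 peak (chr6:126485017-126485773, exon) held 22.1, 26.7, 28.1, 32.2 and 38.7 normalized reads in αTC1 and 1.14, 0.820, 0.946, 1.28 and 0.469 in βTC6 (log2 fold change -3.98 ± 0.20, FDR = 1e-12, limma). All 19 peaks of the neighbouring genes Kcna1, Kcna5 and Kcna6 were lower in βTC6, 12 of them called, where 5.38% of all peaks were, with a median log2 fold change of -2.17 against -0.79 over chromosome 6. The Kcnip1 peak (chr11:33892575-33893747, first exon) held 2.66, 3.79, 3.01, 5.05 and 1.59 normalized reads in αTC1 and 28.8, 25.6, 25.3, 32.7 and 30.5 in βTC6 (log2 fold change 2.86 ± 0.19, FDR = 6.56e-11, limma). The largest moderated t in βTC6 belonged to Kcnn2 (chr18:45717791-45720049), at 5.60, 5.76, 3.91, 5.46 and 5.06 normalized reads in αTC1 and 107, 102, 92.2, 93.5 and 121 in βTC6. This Kcnn2 peak lay 888 bases before the start site the authors assigned, which is inside the annotated gene (chr18:45428659-45845678, plus strand). Kcns3 (chr12:11156063-11157368, exon) rose from 3.57 ± 0.663 to 43.4 ± 7.76 and Kcnj9 (chr1:174259224-174259765) fell from 24.3 ± 1.86 to 2.25 ± 0.352 (SD, n = 5). Start sites of Kcna2, Kcna3, Kcnh7, Kcnv1 and Kcnq3 were also called more open in βTC6, and none of these genes reached the FPKM filter. Their mean mRNA levels in βTC6 were 0.0767 to 0.947 FPKM. In the fit without the filter all of them were called higher in βTC6, where 12.8% of all genes were. Kcna2, Kcna3, Kcnv1 and Kcnq3 had no count in αTC1, and Kcnh7 had a log2 fold change of 3.71.

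Alternative start sites of Kcnip3 differed in opposite directions. Beside the upstream start printed above, the peaks at chr2:127346951-127347185 and chr2:127347388-127348237 were lower in βTC6, at 12.9 ± 1.03 against 6.23 ± 1.14 and 33.0 ± 3.39 against 10.3 ± 2.08 normalized reads (SD, n = 5; log2 fold changes -0.96 and -1.60). At the downstream start (chr2:127307840-127308817) the libraries held 1.68, 1.97, 1.2, 2.05 and 3.18 normalized reads in αTC1 and 17.8, 12.9, 16.8, 15.4 and 13.1 in βTC6, a called log2 fold change of 2.45 ± 0.21 (FDR = 1.57e-09, limma). The gene table does not separate transcripts. At Kcnk2, the peak before the upstream start was at 29.1 ± 2.34 in αTC1 and 20.9 ± 1.52 in βTC6, and the peak over the downstream start at 4.52 ± 1.46 and 10.9 ± 1.25 normalized reads. The upstream log2 fold change of -0.46 lay above the chromosome 1 median of -0.61, so its sign turns relative to that median.

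At Kcnj3 the start site and a distant peak differed in opposite directions. Both peaks at the start site were higher in βTC6, where the mRNA was lower: 11.7 ± 1.91 against 35.2 ± 3.92 normalized reads at chr2:55288080-55289033 (log2 fold change 1.51) and 4.51 ± 1.07 against 8.50 ± 1.17 at chr2:55289534-55289998 (log2 fold change 0.80). The chromosome 2 median log2 fold change was -0.16. Of the 17 Kcnj3 peaks, 5 were called more open in βTC6, where 12.9% of all peaks were, and 1 in αTC1, where 5.38% were. The single one called in αTC1 lay 381209 bases beyond the start site (chr2:55670393-55671158, intergenic), at 77.6, 83.6, 86.7, 80.4 and 93.7 normalized reads in αTC1 and 0.852, 2.05, 2.03, 0.713 and 0.376 in βTC6 (log2 fold change -5.35 ± 0.19, FDR = 1.70e-14, limma). Start-site accessibility was also lower in βTC6 at Kcnk16 (chr14:21088128-21089017), 19.4 ± 2.42 against 8.16 ± 0.522, while its mRNA did not differ measurably.

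The 5 peaks with the largest moderated t in αTC1 were all distal and intergenic. Kcne4, an auxiliary subunit gene, was at 0.03 FPKM or lower in every RNA-seq library, yet 3 of its 12 peaks were among the 5 strongest. The peak at chr1:78757314-78758283, whose centre is printed above, held 115, 95.9, 121, 113 and 122 normalized reads in αTC1 and 5.40, 4.72, 5.95, 4.71 and 6.01 in βTC6 (log2 fold change -4.17 ± 0.11, FDR = 4.48e-16, limma). Those at chr1:78741237-78742551 and chr1:78862190-78863542 were at 121 ± 4.79 and 123 ± 6.62 in αTC1 and at 16.2 ± 1.73 and 12.3 ± 3.02 in βTC6. The Kcnk2 peak at chr1:191319492-191320653, 93921 bases before the start site, was at 87.7 ± 6.52 and 4.84 ± 1.25. A nearest-gene label gives distance and does not show which gene a peak acts on. The chromosome 1 median was -0.61. In βTC6 a distal peak lay 25245 bases before Kcnb2 (chr1:15276286-15278290; 6.33 ± 1.79 against 88.4 ± 13.9). The strongest Kcnip4 peak (chr5:49915472-49917319; 3.65 ± 1.23 against 66.1 ± 10.1) lay 239498 bases before the start site the authors assigned, but it covers the annotated start of the gene at 49915940. Kcnip4 held the most called peaks, 13 of 42, all more open in βTC6, where 12.9% of all peaks were called, and 10 of the 13 also passed the threshold relative to the chromosome 5 median of 0.31. At Kcnh5, 6 of 11 peaks were called more open in βTC6, and at Kcnc4 4 of 11 in αTC1, where 5.38% of all peaks were.

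Kcnj2 and Kcnj16, neighbouring inward rectifier genes on chromosome 11, stood apart. At the Kcnj2 start site (chr11:110926964-110927952) the αTC1 libraries held 0.140, 0.140, 0.150, 0.136 and 0.144 normalized reads and the βTC6 libraries 44.6, 39.0, 40.9, 47.5 and 46.1 (log2 fold change 5.28 ± 0.17, FDR = 5.26e-15, limma). Each of those αTC1 values is the smallest in its library and is worth 1 read, and the table holds no value below 1 read, so 0 and 1 read cannot be told apart. The same minimum was found in every αTC1 library at 9 of the 12 peaks of the pair, and all 9 were called more open in βTC6, where their summed normalized reads were 111 to 125. These belonged to an unbroken run of 54 peaks at 1 read in all 5 αTC1 libraries, from chr11:109037675 to chr11:111177459, 2140 kb. The 3 Kcnj2 peaks beyond it had log2 fold changes of 1.03 to 1.66. The mRNAs were low in both lines: Kcnj2 was at 0.14, 0.01 and 0.10 FPKM in βTC6 and 0 in αTC1, and Kcnj16 at 0.01 FPKM or lower throughout. Whether the DNA of this stretch is present in αTC1 was not tested.

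**Figure D4:**
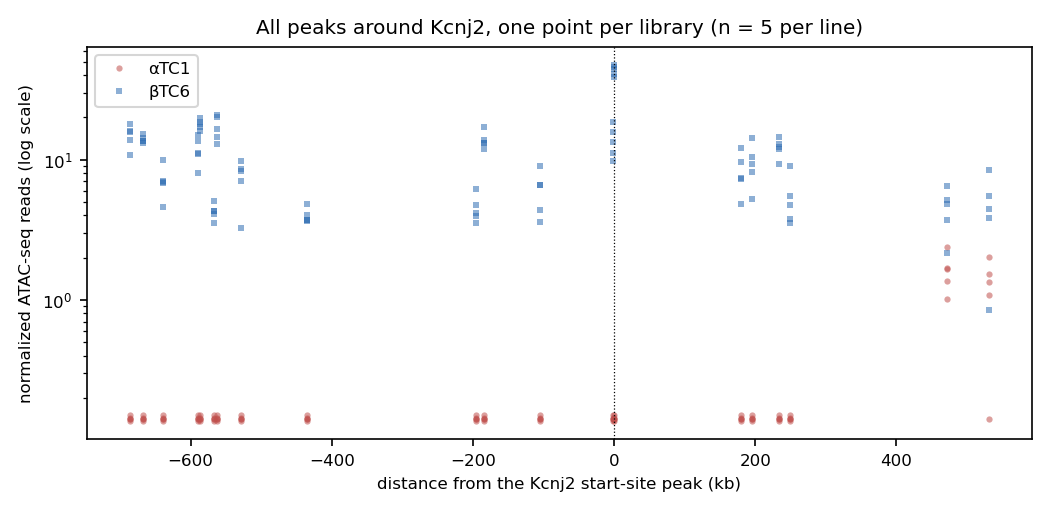
Normalized ATAC-seq reads on a log axis in the peaks around Kcnj2, against the distance of each peak from the Kcnj2 start-site peak in kb, with 1 point per library (n = 5 per line). The αTC1 libraries lie at their minimum of 1 read at every peak shown up to 249.9 kb beyond the start-site peak, and all 5 lie above it at the next, 471.6 kb beyond.

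Kcnma1, Kcnk5, Kcnk16 and Kcnrg lie on chromosome 14, where the median peak had a log2 fold change of 1.54 and the median gene 1.2. The 20 peaks assigned to the first 3 had a median of 1.46, so that as a group they followed their chromosome, and Kcnrg had no peak there. Of 17 Kcnma1 peaks 4 were called more open in βTC6, where 12.9% of all peaks were, and relative to the chromosome median 1 was. That peak (chr14:24510079-24510737, intron) was at 1.55 ± 0.514 normalized reads in αTC1 and 29.5 ± 4.12 in βTC6. Without chromosome 14, 84 of 492 peaks were called more open in βTC6 and 44 in αTC1. Over all peaks, chromosome 14 included, the shares were 12.9% and 5.38%. Kcnk5 was at 0.01 FPKM or lower, and Kcnrg at 0.10 to 0.24 FPKM in αTC1 and 0.28 to 0.84 FPKM in βTC6.

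The same peaks were also read in the 9 mixtures, which were made of the lines in which the peaks had been called. The selection of the peaks therefore fixed the direction of the relation with composition, and the p-values below add no independent evidence on the peaks. All 44 peaks called in αTC1 had a positive correlation with the percentage of αTC1 cells (Pearson r 0.70 to 0.99) and all 88 called in βTC6 a negative one (-0.99 to -0.63), each over 9 mixtures of 1 library each. For the 3 peaks with the largest moderated t in each direction, 6 relations in all, the exact permutation test was applied. The Kcnk2 peak 93921 bases before the start site rose from 16.7 normalized reads at 10% αTC1 cells over 60.6 at 50% to 86.4 at 90%, with r = 0.986 and rho = 1.0 (exact two-sided p = 5.51e-06, the smallest 9 mixtures can give; adjusted p = 1.65e-05). The Kcne4 peaks at chr1:78757314 and chr1:78741237 had r = 0.971 (rho = 0.967, exact p = 5.51e-05, adjusted p = 5.51e-05) and r = 0.968 (rho = 0.983, exact p = 2.76e-05, adjusted p = 3.31e-05). The Kcnn2 start-site peak went from 102 at 10% over 48.2 at 50% to 7.72 at 90% αTC1 cells, with r = -0.974 and rho = -1.0 (exact p = 5.51e-06, adjusted p = 1.65e-05). The Kcnb2 distal peak had r = -0.979 and rho = -0.983 (exact p = 2.76e-05, adjusted p = 3.31e-05). The Kcnj2 start site, at its minimum in pure αTC1, held 3.45 normalized reads at 90% αTC1 cells and 48.4 at 10%, with r = -0.972 and rho = -0.983 (exact p = 2.76e-05, adjusted p = 3.31e-05). Exact p-values of rho were 5.51e-06 to 1.65e-04. Without the 10% and 90% mixtures, the farthest from the median composition, r was 0.939 to 0.980 for the αTC1 peaks and -0.962 to -0.959 for the βTC6 peaks.

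**Figure D5:**
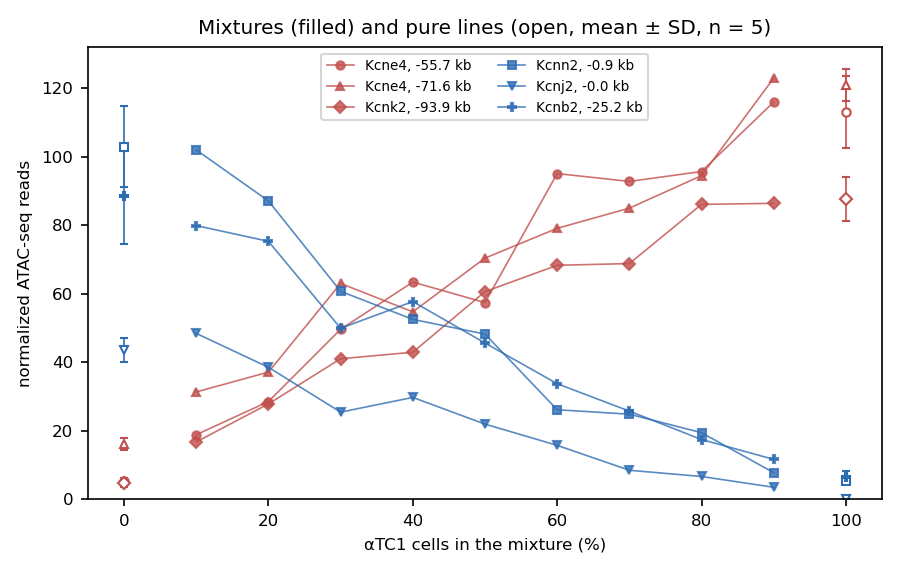
Normalized ATAC-seq reads of the 6 peaks against the percentage of αTC1 cells, with filled symbols and lines for the mixtures (1 library each) and open symbols with bars for the pure lines (mean ± SD, n = 5), red for peaks more open in αTC1 and blue for βTC6. The αTC1 peaks rise and the βTC6 peaks fall across the mixtures.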

How the data were processed

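RNA-seq was analysed in 3 αTC1 and 3 βTC6 libraries and ATAC-seq in 5 libraries of each line and 9 mixtures. The expected count and FPKM tables were made and deposited by the authors with RSEM (stranded paired-end libraries, mm9). The paper states that RSEM was run with default parameters and names no strand setting. The deposited ATAC-seq signal is reads per consensus peak scaled by the authors with TMM (BWA 0.7.9a, MACS2 2.1.0, DiffBind 2.2.5, HOMER 4.6, per the paper's methods and the submitters' processing notes). Every value was a whole multiple, within 0.01, of what 1 read is worth in its library. Columns naming the authors' peak classes hold their own comparisons and were not used.

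Expected counts were rounded and fitted with edgeR 4.0.16 (TMM, quasi-likelihood; 92 ERCC spike-ins left out; 1 FPKM in all replicates of either line). Peaks were fitted with limma 3.58.1 on log2(value + 1). The study's RUVSeq step was not run; spike-in factors were alternatives. DESeq2 1.42.0 was another. Scripts were tested on simulated data. Bounds use a floor of 3 counts per library, and intervals are exact at 95%. Replicates differed by more than sampling noise (at least 2.05 chi-square units per feature). Start sites follow the authors' distances, and exons GENCODE vM1. Plots used matplotlib 3.10.9. The 6 mixture relations used exact permutation tests. Other scalings, pseudocounts, filters and left-out replicates were tried as alternatives.

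The genes and lists were chosen with earlier results of these data known. Named were the KATP genes, called genes, each family's most abundant genes, the peaks nearest to those start sites, the 5 strongest called peaks per direction, and peaks on chromosome 14 and at Kcnj2 and Kcnj16; genes just under the filter, other start sites and Kcnip3, Kcnk2 and Kcnj3 peaks were named after their values were seen. Some genes that these rules would name are not reported here, in the text or the plots, while counts and sums cover every gene.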

Additional observations from a re-analysis of the deposited data

Results flagged for a closer look

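Of 115 groups of 5 ATAC-seq libraries at the named peaks, 5 held a library far from the other 4 by Dixon's criterion, and chance alone flags about 1 in 20 groups. At the Kcnb2 distal peak, βTC6 replicate 5 held 113 normalized reads against 79.1 to 86.0 in the others. At the Kcnc2 peak centred 584 bases before the start site, αTC1 replicate 2 held 13.8 against 10.5 to 10.8, and βTC6 replicate 5 held 63.0 against 41.6 to 47.2. At the Kcnc4 peak 1157 bases before the start site, αTC1 replicate 5 held 10.1 against 16.7 to 18.4. At the Kcnma1 peak 430684 bases beyond the start site, αTC1 replicate 5 held 5.06 against 2.53 to 3.01. No library stood apart at the KATP peaks.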

How the results depend on the processing

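The counts of genes called stayed at 16 and 6 under DESeq2, library size scaling, both spike-in scalings and leaving out any replicate (16 to 16 in βTC6, 6 to 6 in αTC1). They were 39 and 14 without the FPKM filter (91 genes tested; 12.8% and 5.21% of all genes called), and 7 and 3 with limma on log2(FPKM + 1), which lost 12 calls. The pseudocount set the peak counts: 16 and 15 with a pseudocount of 5, and 111 and 60 with 0.5. edgeR on the recovered reads called 132 in βTC6 and 75 in αTC1. Leaving out 1 library gave 87 to 93 and 42 to 45. Replicate numbers do not pair the samples (correlation of same-numbered deviations -0.047 to 0.069), and the replicate block left the counts at 16 and 6 genes and 88 and 44 peaks.

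Relative to the chromosome median the counts were 14 and 6 genes and 94 and 38 peaks. That setting reversed Kcnk16 mRNA (-0.91), the start-site peaks of Abcc8 (0.06), Kcnj8 (0.05) and Kcnma1 (-0.29), the Kcnk16 peak at -7305 bases (-1.19), the Kcnk9 peak nearest to its start site (0.07) and the Kcnma1 peaks at +229643 (-0.05), +220788 (-0.53), +201003 (-1.52), +14555 (-0.10) and -4311 bases (-0.57). The Kcnk9 peak, at -0.02 in all libraries, was 0.21 in replicates 4 and 5 alone and -0.07 to 0.05 without single libraries, 0.00 among them. The Kcnma1 +201003 peak, at 0.01, was -0.42 after quantile normalization, -0.33 in replicates 4 and 5 alone and -0.12 to 0.15 without single libraries. Other reversals were not found among 37 genes and 62 peaks. The 6 mixture relations kept their sign and passed the threshold on the log2 scale and without the outer mixtures. The causes were not tested. No call turned direction under any of these settings. Genes under the filter rest on few counts, and peaks at 1 read in the table have no lower value to show.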
